A study of Arabidopsis thaliana with 12 samples.

Results

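The 45 genes described here were much higher when Arabidopsis thaliana seedlings were given abscisic acid (ABA), differed little from control with the synthetic compound DFPM alone, and stood lower when both were given than with ABA alone. They were chosen from group means of log2 expression values by 3 limits: ABA minus control of at least 3, DFPM minus control between -1 and 1, and ABA+DFPM minus ABA of at most -1.5. The rule was applied to probe sets that name 1 gene and reached log2 4 in at least 3 arrays, of which there were 7705. In all 51 named genes met the limits, and 6 of them, COR15A, HSP22, SAG29, AT3G15670, AT3G17520 and AT4G21650, were left out by name, which leaves 45. Since measured values chose the genes, their differences in these 3 comparisons, and in ABA+DFPM against control, which joins the same means, are given as a description with standard errors and no p-value.

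Expression was measured on 12 one-colour Affymetrix ATH1 arrays in whole seedlings of the Col0 ecotype, grown on plates for 12 days and then moved to 6-well plates. The 4 groups of 3 arrays were a control (DMSO, the solvent, diluted in water), ABA (10 µM), DFPM (30 µM) and ABADFPM, written here as ABA+DFPM (10 µM and 30 µM). The treatments lasted 6 h, and DFPM went in 30 min ahead of ABA, a remark that the labels of the DFPM arrays carry too. The control labels give no time. All groups carry the same genotype and are labelled by the added compounds. Differences in time or handling cannot be told apart from those of the compounds. Whether the 3 arrays per group stand for 3 independent cultures is not stated. The p-values therefore measure the spread between these arrays, which may be technical. Precision is limited by having 3 arrays per group.

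ABA is the plant hormone of drought, cold and seed maturation. It binds the PYR/PYL receptors, which then block PP2C phosphatases. SnRK2 kinases freed from these phosphatases phosphorylate ABF transcription factors, and these switch on genes of sugar transport, solute protection and dehydration tolerance. DFPM is a furan thioamide found in a chemical screen as an antagonist of ABA-driven gene expression, and its effect on ABA responses is known to need components of plant immune signalling. Of the 45 genes 4 carry a symbol in the tables used here: SWEET4, a sugar transporter gene, AMY1, an alpha-amylase gene whose product cuts starch, UGT85A5, a UDP-glycosyltransferase gene whose product attaches sugars to small molecules, and CPUORF47, named for a conserved short peptide encoded ahead of a main reading frame. The other 41 are named by their locus only, and no role is given for them here.

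Arrays numbered 1 and 2 in the sample titles were close to each other in every group (r from 0.987 to 0.992 across probe sets), and those numbered 3 stood apart (r from 0.875 to 0.92), so results are also given by replicate number. Whole seedlings hold several tissues, and 2 of 8 root, 1 of 5 guard cell, 2 of 8 leaf and 0 of 8 embryo markers had a usable named probe set. The log2 of the summed linear levels of the 2 root markers ranged over 7.39–7.61 in control arrays, 6.97–7.55 in ABA arrays, 6.34–6.86 in DFPM arrays and 5.16–6.85 in ABA+DFPM arrays. That of the 2 leaf markers ranged over 13.96–14.48 in control, 13.03–13.84 in ABA, 10.52–13.54 in DFPM and 10.43–13.15 in ABA+DFPM arrays. The guard cell marker FAMA ranged over 5.75–7.13 (control), 4.47–6.71 (ABA), 5.18–7.09 (DFPM) and 4.09–7.15 (ABA+DFPM). Fewer cells of a type and less RNA per cell cannot be told apart in such samples. For ubiquitin, the 3' minus 5' difference of control probe sets, a sign of RNA integrity, ranged over 1.03–1.29 in control arrays, 0.61–0.82 in ABA arrays, 1.04–1.25 in DFPM arrays and 0.73–0.97 in ABA+DFPM arrays. Actin gave 4.86–5.30 (control), 4.56–4.63 (ABA), 4.86–5.05 (DFPM) and 4.27–4.68 (ABA+DFPM), and GAPDH 1.09–1.31, 1.24–1.32, 0.91–1.22 and 1.05–1.27 likewise. The part of these shifts in the results below was not tested.

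Across the 45 genes the ABA minus control difference ran from 3.14 to 7.75 with a median of 4.66 on the log2 scale. DFPM minus control ran from -0.83 to 0.82, ABA+DFPM minus ABA from -3.61 to -1.51 with a median of -2.19, and ABA+DFPM minus control from 0.17 to 5.25 with a median of 2.34. Over all 14401 probe sets kept, the medians of ABA minus control, ABA+DFPM minus ABA and ABA+DFPM minus control were -0.09, -0.09 and -0.06. The cut is read in 2 ways below. The level left is the ABA+DFPM level as a percentage of the ABA level on the linear scale, and it ran from 8.2% to 35.0%. The rise left is ABA+DFPM minus control over ABA minus control, both on the log2 scale, and it ran from 4.6% to 74.0% with a median of 53.0%. Under 25% of the rise was left in 5 genes, 25% to 50% in 14 and 50% to 75% in 26. In control seedlings 36 of the 45 genes had a group mean under log2 4, near the bottom of the array scale, so ABA minus control and the shares left depend there on values that carry little signal.

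**Figure D1:**
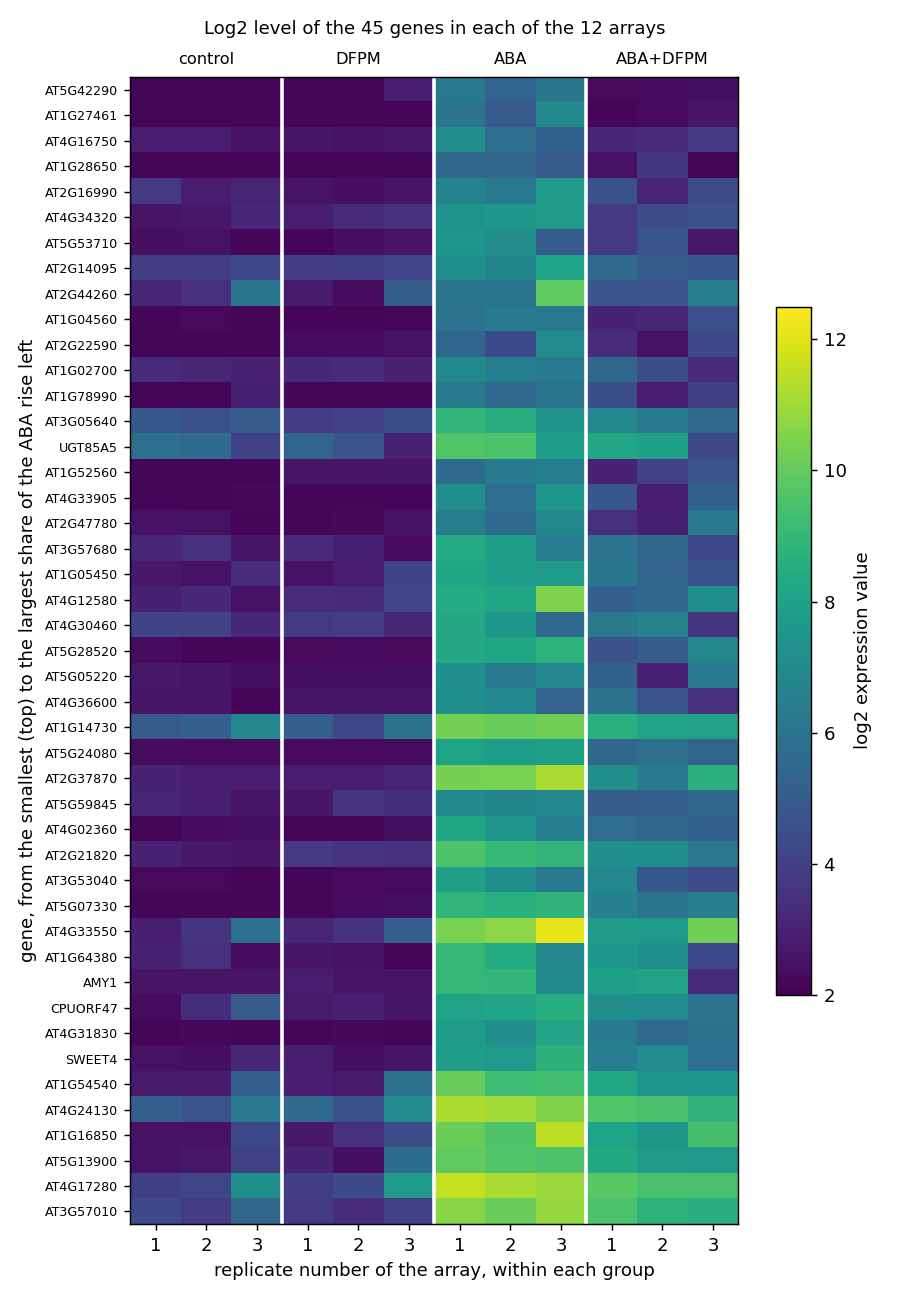
Log2 expression value (colour) of the 45 genes (vertical axis, ordered by the share of the ABA rise left with DFPM, smallest at the top) in the 12 arrays (horizontal axis, by group and replicate number). Control and DFPM columns are dark for most genes, ABA columns are bright, and ABA+DFPM columns run from dark at the top (4.6% of the rise left) to bright at the bottom (74.0%).

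All 3 ABA arrays lay above all 3 control arrays in 44 of the 45 genes, against 21.1% of all kept probe sets. The exception was AT2G44260, whose control array numbered 3 was high (6.11, against 3.10 and 3.45). ABA+DFPM arrays all lay below the ABA arrays in 36 of the 45, against 18.8% of all probe sets, and the 9 genes with overlap were UGT85A5, AT2G47780, AT2G44260, AT5G05220, AMY1, AT4G36600, AT3G53040, AT1G64380 and AT4G30460. ABA+DFPM arrays all lay above the control arrays in 38 of the 45 (26.0% of all probe sets) and above the DFPM arrays in 39 (15.6%). The rule used these means, so nothing is read from these counts.

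Among the 4 genes with a symbol, SWEET4, whose product moves sugars across membranes, read 2.53, 2.43 and 3.13 in the control arrays numbered 1, 2 and 3 and 2.87, 2.43 and 2.60 with DFPM. It read 7.88, 7.69 and 8.73 with ABA and 6.51, 7.05 and 5.82 with both, values in this order throughout. Its mean with ABA was above control by 5.40 ± 0.36 (SE, n = 3 arrays per group), and with DFPM present 69.7% of that rise was left. Control, ABA+DFPM and ABA arrays did not overlap, and array 3 gave the largest drop (-1.37, -0.64 and -2.90 within numbers 1, 2 and 3). AMY1, which breaks starch, was 2.57, 2.57 and 2.57 in control, 2.78, 2.57 and 2.57 with DFPM, 8.99, 8.97 and 6.97 with ABA and 7.93, 8.15 and 3.27 with both. Its mean difference of -1.86 ± 1.09 between ABA+DFPM and ABA came mostly from number 3, where it was -3.70, against -1.06 and -0.83 in numbers 1 and 2, and the ABA and ABA+DFPM arrays overlapped.

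UGT85A5, the glycosyltransferase gene, was already measurable in control seedlings at 5.87, 5.68 and 4.01 and read 5.40, 4.70 and 3.04 with DFPM, 9.64, 9.54 and 7.89 with ABA and 8.29, 8.02 and 4.32 with both. In every group its array 3 was the lowest, and ABA+DFPM minus ABA was -1.35, -1.52 and -3.57 by number, for a mean of -2.15 ± 1.06. The ABA+DFPM arrays overlapped those of ABA and of control. CPUORF47 gave 2.34, 3.39 and 4.92 in control, 2.74, 2.92 and 2.60 with DFPM, 8.10, 8.23 and 8.57 with ABA and 7.22, 7.10 and 6.05 with both. With -1.51 ± 0.55 it was the gene nearest to the limit of -1.5, and 68.2% of its ABA rise of 4.75 ± 0.55 was left. In both genes DFPM alone gave a mean below control, with differences of -0.80 and -0.79, within the SE for UGT85A5 (1.06) and above it for CPUORF47 (0.55).

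On the deposited scale ABA+DFPM stood within 1 log2 unit of control in 5 genes, so that little of the ABA rise was left. AT5G42290 read 2.14, 2.15 and 2.15 in control, 2.14, 2.14 and 2.88 with DFPM, 6.25, 5.37 and 6.03 with ABA and 2.26, 2.29 and 2.41 with both. Against an ABA minus control difference of 3.73 ± 0.26, ABA+DFPM minus ABA was -3.56 ± 0.26, and 4.6% of the rise was left on the deposited scale. AT1G27461 was 2.14, 2.14 and 2.14 in control and 2.14, 2.14 and 2.14 with DFPM, read 5.99, 4.92 and 6.98 with ABA and 2.14, 2.28 and 2.63 with both. ABA+DFPM minus ABA was -3.61 ± 0.40, and 5.5% of its rise was left on the deposited scale. In both genes the ABA+DFPM arrays were close to the bottom of the scale, 2.14. With all values under log2 4 set to 4, the drop was -1.96 in AT1G27461, -1.88 in AT5G42290 and -1.33 in AT1G28650 (below), and these 3 of the 45 genes were those whose drop became over 1.5 times smaller. On that floored scale the deepest drops were instead those of AT2G37870 and AT4G34320, both -3.21, and AT4G12580, -3.05.

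AT4G16750 gave 2.80, 2.83 and 2.52 in control, 2.64, 2.53 and 2.70 with DFPM, 7.20, 5.75 and 5.26 with ABA and 3.15, 3.27 and 3.78 with both. Its drop of -2.67 ± 0.41 was deepest in number 1 and shallowest in number 3 (-4.05, -2.48 and -1.48), and 20.4% of the rise was left on the deposited scale. All its control and ABA+DFPM arrays were under log2 4, so with the floor ABA+DFPM minus control was 0.0. AT2G16990 was 3.77, 2.85 and 3.08 in control, 2.56, 2.44 and 2.65 with DFPM, 6.68, 6.24 and 7.75 with ABA and 4.59, 3.10 and 4.43 with both. Here the ABA+DFPM arrays overlapped those of control and 22.1% of the rise was left, while all DFPM arrays lay below all control arrays. The fifth gene, AT1G28650, read 5.56, 5.46 and 4.99 with ABA and 2.53, 3.71 and 2.14 with both, against 2.14 in every control and DFPM array. On the deposited scale 20.5% of its rise was left, and with the floor its ABA+DFPM minus control was 0.0 too.

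**Figure D2:**
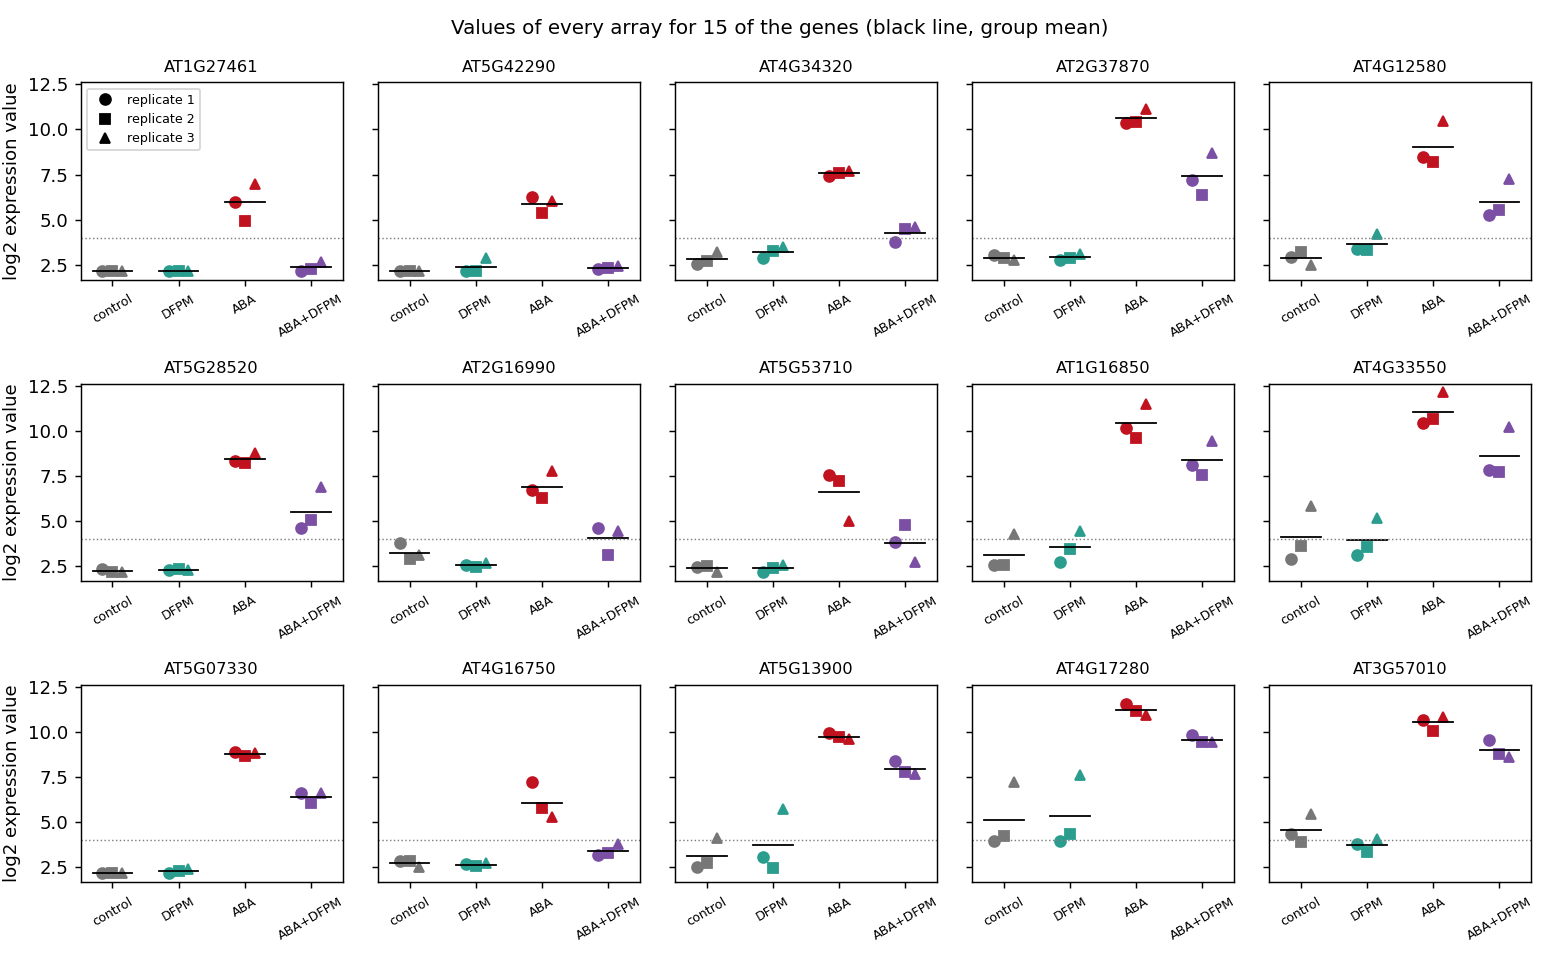
Log2 expression value (vertical axis, shared by all panels) in control, DFPM, ABA and ABA+DFPM (horizontal axis) for 15 of the genes, with a symbol for each replicate number, a black line at the group mean and a dotted line at log2 4, the level used in the filter. ABA+DFPM points sit at the control level in AT5G42290 and AT1G27461, and well above it in AT4G17280 and AT3G57010.

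Between 25% and 50% of the ABA rise was left on the deposited scale in 14 genes, among them UGT85A5. AT4G34320 read 2.54, 2.69 and 3.18 in control, 2.85, 3.26 and 3.48 with DFPM, 7.41, 7.61 and 7.71 with ABA and 3.74, 4.48 and 4.61 with both. Its arrays were close within each group, and ABA+DFPM (-3.30 ± 0.27 against ABA) lay between control and ABA with 30.9% of the rise left. AT5G53710 was 2.45, 2.48 and 2.15 in control, 2.16, 2.38 and 2.56 with DFPM, 7.56, 7.18 and 5.00 with ABA and 3.79, 4.74 and 2.69 with both. It was lowest in number 3 both with ABA and with ABA+DFPM, but the drop held in each number (-3.77, -2.44 and -2.31), and 32.7% of the rise was left. With values floored at log2 4, ABA+DFPM minus control was 0.36 in AT4G34320, against an ABA rise of 3.58. In AT5G53710 it was 0.25, against 2.58. The place of both genes in this class thus rests on values under log2 4.

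The other genes of this class are given by group means, in log2 units. AT1G04560 averaged 2.19 in control, 2.18 with DFPM, 6.18 with ABA and 3.57 with both. For AT4G33905 the group means were 2.16 in control, 2.14 with DFPM, 6.82 with ABA and 4.33 with both. Means of 3.07 in control, 2.84 with DFPM, 7.57 with ABA and 5.28 with both were found for AT3G57680. The difference between both and ABA was -2.61 ± 0.35 in AT1G04560 with 34.6% of the rise left, -2.49 ± 0.59 in AT4G33905 with 46.5% of the rise left and -2.30 ± 0.56 in AT3G57680 with 49.0% of the rise left. AT1G02700 averaged 3.12 in control, 3.13 with DFPM, 6.65 with ABA and 4.41 with both. For AT1G52560 the group means were 2.14 in control, 2.58 with DFPM, 6.17 with ABA and 3.94 with both. Means of 2.15 in control, 2.41 with DFPM, 5.63 with ABA and 3.40 with both were found for AT2G22590. Against ABA alone, both compounds gave -2.23 ± 0.45 in AT1G02700 with 36.7% of the rise left, -2.23 ± 0.39 in AT1G52560 with 44.8% of the rise left and -2.23 ± 0.61 in AT2G22590 with 35.7% of the rise left. AT1G78990 averaged 2.40 in control, 2.16 with DFPM, 5.99 with ABA and 3.79 with both. For AT2G14095 the group means were 4.01 in control, 4.00 with DFPM, 7.35 with ABA and 5.16 with both. The difference between both and ABA was -2.20 ± 0.39 in AT1G78990 with 38.7% of the rise left and -2.19 ± 0.32 in AT2G14095 with 34.4% of the rise left. AT2G47780 averaged 2.38 in control, 2.3 with DFPM, 6.34 with ABA and 4.26 with both. For AT2G44260 the group means were 4.22 in control, 3.40 with DFPM, 7.36 with ABA and 5.30 with both. Means of 4.86 in control, 4.14 with DFPM, 8.32 with ABA and 6.28 with both were found for AT3G05640. Against ABA alone, both compounds gave -2.08 ± 0.73 in AT2G47780 with 47.6% of the rise left, -2.06 ± 1.20 in AT2G44260 with 34.4% of the rise left and -2.05 ± 0.42 in AT3G05640 with 40.9% of the rise left. Of these 11 genes AT1G02700, AT1G78990 and AT2G44260 had ABA+DFPM arrays that overlapped those of control.

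In the other 26 genes 50% to 75% of the rise was left on the log2 scale, and these include all 9 with an ABA rise of 6 or more. AT2G37870 had the largest ABA minus control difference of the 45, 7.75 ± 0.48, or 6.63 with values floored at log2 4. It read 3.01, 2.84 and 2.78 in control, 2.78, 2.84 and 3.10 with DFPM, 10.34, 10.39 and 11.16 with ABA and 7.20, 6.38 and 8.68 with both. The difference of -3.21 ± 0.48 left 10.8% of the ABA level, although 58.6% of the log2 rise was left. AT4G12580 was 2.91, 3.19 and 2.50 in control, 3.35, 3.31 and 4.20 with DFPM, 8.47, 8.20 and 10.48 with ABA and 5.24, 5.53 and 7.25 with both. Its array 3 was the highest in all groups but control, and the drop was alike in each number (-3.23, -2.68 and -3.23). AT5G28520 gave 2.33, 2.14 and 2.14 in control, 2.28, 2.32 and 2.25 with DFPM, 8.33, 8.21 and 8.78 with ABA and 4.61, 5.03 and 6.88 with both, with a mean drop of -2.93 ± 0.47 that was shallowest in number 3 (-1.90).

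On the deposited scale the next largest ABA minus control differences were 7.31 ± 0.70 in AT1G16850, 6.96 ± 0.93 in AT4G33550 and 6.65 ± 0.18 in AT5G07330. With values floored at log2 4 they were 6.32, 6.44 and 4.79, since most control values lay under that level. AT5G07330 then lay below the other 2 and below further genes, among them AT4G17280 (6.07) and AT3G57010 (5.93). AT1G16850 read 2.52, 2.53 and 4.26 in control, 2.71, 3.42 and 4.43 with DFPM, 10.16, 9.61 and 11.46 with ABA and 8.10, 7.54 and 9.42 with both. Its drop was nearly the same in each number (-2.05, -2.07 and -2.04), while the levels of number 3 were higher throughout. AT4G33550 was 2.87, 3.57 and 5.84 in control, 3.08, 3.52 and 5.13 with DFPM, 10.40, 10.66 and 12.12 with ABA and 7.79, 7.71 and 10.21 with both, again with number 3 highest in each group and a drop in each number (-2.60, -2.95 and -1.91). AT5G07330 showed the least spread of these, at 2.14, 2.14 and 2.14 in control, 2.14, 2.29 and 2.37 with DFPM, 8.89, 8.66 and 8.81 with ABA and 6.59, 6.03 and 6.58 with both, with a drop of -2.38 ± 0.18 and 64.1% of the rise left.

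The largest shares of the rise were left in AT3G57010, AT4G17280 and AT5G13900, with 74.0%, 73.0% and 72.8%. AT3G57010 read 4.31, 3.86 and 5.46 in control, 3.78, 3.34 and 4.05 with DFPM, 10.65, 10.07 and 10.85 with ABA and 9.53, 8.77 and 8.61 with both. AT4G17280 was 3.94, 4.21 and 7.23 in control, 3.94, 4.33 and 7.63 with DFPM, 11.57, 11.15 and 10.92 with ABA and 9.82, 9.46 and 9.43 with both. AT5G13900 was 2.52, 2.69 and 4.09 in control, 3.06, 2.42 and 5.73 with DFPM, 9.92, 9.69 and 9.58 with ABA and 8.36, 7.76 and 7.64 with both. In all 3 the ABA+DFPM arrays lay above every control array and below every ABA array, and in AT4G17280 and AT5G13900 array 3 was high in control and DFPM alike.

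The standard errors printed here come from the fit without the replicate number. Within numbers ABA+DFPM minus ABA was -1.76, -1.75 and -1.81 in AT1G54540 and -1.59, -1.56 and -1.67 in AT4G24130, so these differences varied little between numbers. In AT5G24080 the ABA arrays read 8.11, 7.83 and 7.96 and the ABA+DFPM arrays 5.48, 5.86 and 5.39.

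Group means of the genes of this class not given by array were as follows. AT5G24080 averaged 2.31 in control, 2.31 with DFPM, 7.97 with ABA and 5.58 with both. For AT4G31830 the group means were 2.19 in control, 2.18 with DFPM, 7.69 with ABA and 5.95 with both. Means of 2.88 in control, 3.23 with DFPM, 6.86 with ABA and 5.22 with both were found for AT5G59845. The difference between both and ABA was -2.39 ± 0.16 in AT5G24080 with 57.7% of the rise left, -1.74 ± 0.25 in AT4G31830 with 68.4% of the rise left and -1.64 ± 0.26 in AT5G59845 with 58.8% of the rise left. AT2G21820 averaged 2.78 in control, 3.60 with DFPM, 9.18 with ABA and 6.86 with both. For AT1G05450 the group means were 2.85 in control, 3.16 with DFPM, 7.88 with ABA and 5.37 with both. Means of 5.70 in control, 5.12 with DFPM, 10.21 with ABA and 8.29 with both were found for AT1G14730. Against ABA alone, both compounds gave -2.32 ± 0.30 in AT2G21820 with 63.7% of the rise left, -2.51 ± 0.46 in AT1G05450 with 50.1% of the rise left and -1.91 ± 0.52 in AT1G14730 with 57.6% of the rise left. AT4G02360 averaged 2.29 in control, 2.26 with DFPM, 7.39 with ABA and 5.52 with both. For AT1G54540 the group means were 3.57 in control, 3.85 with DFPM, 9.54 with ABA and 7.77 with both. Means of 5.34 in control, 5.75 with DFPM, 10.92 with ABA and 9.32 with both were found for AT4G24130. The difference between both and ABA was -1.87 ± 0.34 in AT4G02360 with 63.4% of the rise left, -1.77 ± 0.87 in AT1G54540 with 70.3% of the rise left and -1.61 ± 0.58 in AT4G24130 with 71.2% of the rise left. In these 9 genes every ABA+DFPM array lay between the control and ABA arrays. AT4G30460 averaged 3.78 in control, 3.60 with DFPM, 7.20 with ABA and 5.53 with both. For AT5G05220 the group means were 2.56 in control, 2.41 with DFPM, 6.81 with ABA and 4.86 with both. Means of 2.48 in control, 2.65 with DFPM, 6.47 with ABA and 4.67 with both were found for AT4G36600. Against ABA alone, both compounds gave -1.67 ± 0.82 in AT4G30460 with 51.0% of the rise left, -1.95 ± 0.65 in AT5G05220 with 54.1% of the rise left and -1.80 ± 0.61 in AT4G36600 with 54.9% of the rise left. AT3G53040 averaged 2.24 in control, 2.24 with DFPM, 7.15 with ABA and 5.38 with both. For AT1G64380 the group means were 2.93 in control, 2.41 with DFPM, 8.11 with ABA and 6.39 with both. The difference between both and ABA was -1.77 ± 0.58 in AT3G53040 with 64.0% of the rise left and -1.71 ± 0.80 in AT1G64380 with 66.9% of the rise left. In these 5 the ABA+DFPM arrays overlapped those of ABA, and in AT4G30460 those of control as well.

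With DFPM alone 34 of the 45 genes were within 0.5 of control, 3 were above it by more and 8 below it by more, within the limits the rule set. All DFPM arrays lay above all control arrays in 4 genes, AT4G12580, AT2G21820, AT1G52560 and AT2G22590, and below them in 2, AT2G16990 and AT3G05640. The same was true of 21.1% and 23.2% of all kept probe sets. In AT2G21820, where DFPM minus control was largest at 0.82, the arrays read 3.06, 2.72 and 2.57 in control and 3.73, 3.58 and 3.50 with DFPM. Against DFPM alone, ABA+DFPM was higher by a median of 2.44, with a range of -0.06 in AT5G42290 to 5.25 in AT3G57010.

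Within each replicate number all 45 genes were lower with ABA+DFPM than with ABA. The rule chose the genes on the mean of these differences, so their direction and size were largely fixed by the choice. They are given to show the spread between numbers. The median difference was -2.06 in number 1, -2.07 in number 2 and -2.22 in number 3, with ranges of -4.05 to -0.89, -4.01 to -0.64 and -4.35 to -0.53. A difference of -1.5 or lower was reached by 35, 38 and 39 genes. The median ABA rise was 5.28, 4.84 and 4.32, and the median share of it left was 57.2%, 48.2% and 48.1%. Number 3 gave a value more than 1 log2 unit from the mean of numbers 1 and 2 in 16 genes, deeper in 10 and shallower in 6. On the deeper side AMY1 was at -0.95 in the mean of numbers 1 and 2 and -3.70 in number 3, AT2G44260 at -1.32 and -3.54, UGT85A5 at -1.43 and -3.57 and SWEET4 at -1.0 and -2.90. On the shallower side AT2G47780 was at -2.85 and -0.53 and AT5G05220 at -2.62 and -0.60. Of the 45 genes 37 met the 3 limits in numbers 1 and 2 alone, 30 in number 3 alone and 25 in both.

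**Figure D3:**
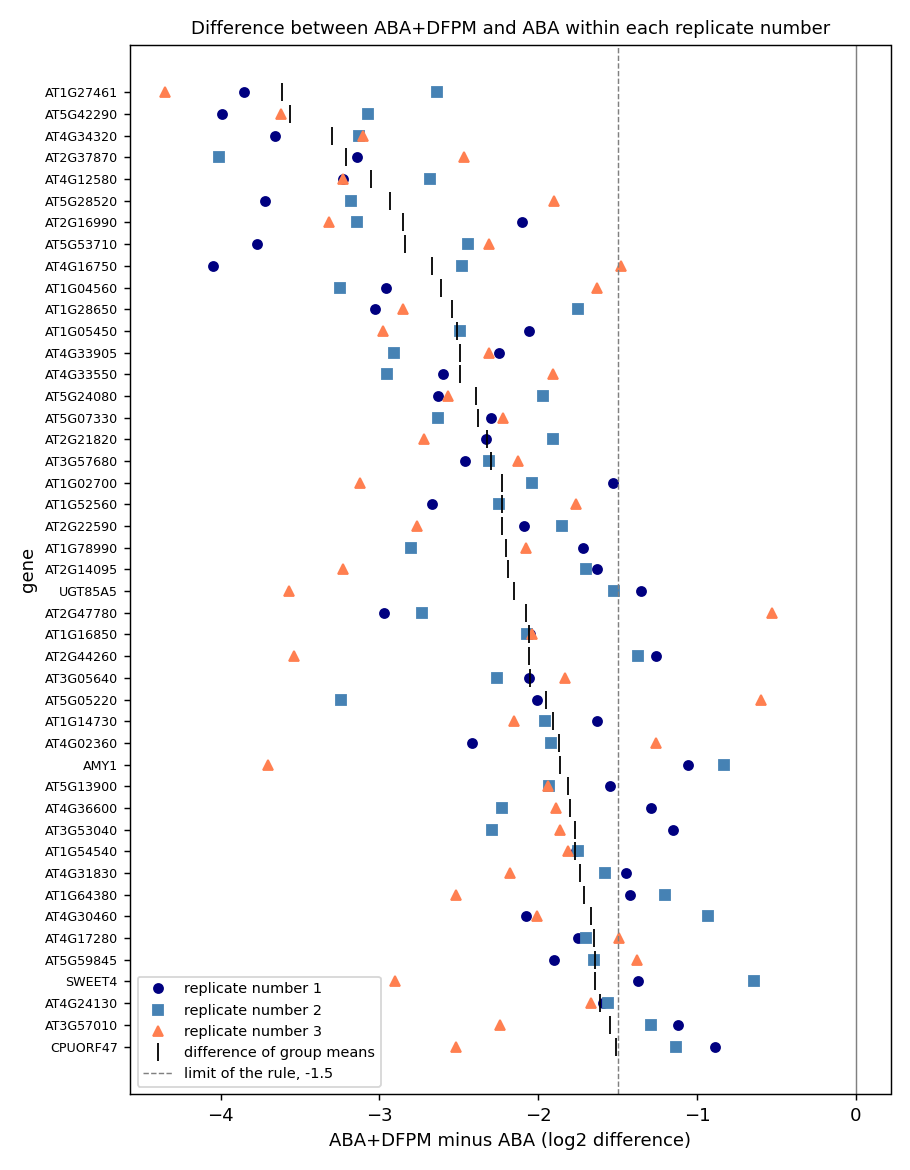
ABA+DFPM minus ABA (horizontal axis, log2 difference) for each of the 45 genes (vertical axis), with a symbol for each replicate number, a black tick for the difference of group means and a dashed line at the limit of -1.5. All points lie left of 0, and number 3 lies far from numbers 1 and 2 in AMY1, UGT85A5, AT2G44260, AT2G47780 and AT5G05220. The rule chose the genes on the mean of these differences.

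A choice made in some arrays can be read in others. With the limits applied to numbers 1 and 2 only, 50 named genes were chosen, 37 of them among the 45, and 50 of the 50 were lower with ABA+DFPM than with ABA in the arrays numbered 3. The filter on low values was here taken from the 8 choosing arrays alone (log2 4 in at least 2 of them), so the arrays numbered 3 entered neither the limits nor the filter, though the deposited normalization may have spanned all arrays. Their median difference there was -2.05, and 76.0% reached -1.5 or lower, where 10.4% of the probe sets passing that filter did. This share, like the matching ones below, covers probe sets whether or not they rose with ABA. It is therefore not a like-for-like reference for genes chosen for an ABA rise. The 99 named genes that passed the ABA and DFPM limits but not that for ABA+DFPM minus ABA had a median of -1.01 in number 3. With number 1 held out, 52 genes were chosen and 52 were lower in it, with a median of -1.83, 67.3% at -1.5 or lower (4.98% of probe sets) and -0.56 as the median of the 66 others. With number 2 held out, 49 of 50 were lower, with a median of -1.93, 72.0% at -1.5 or lower (4.63%) and -0.60 as the median of the 75 others. When at least 3 of the 8 choosing arrays had to reach log2 4, a setting added after the data were seen, 47, 44 and 41 genes were chosen with number 1, 2 or 3 held out, and the held-out medians were -1.75, -1.88 and -2.04. Each held-out set holds 1 array per group, so no test was made, and numbers 1 and 2 resemble each other, so number 3 is the hold-out that shares least with the arrays that chose. In number 3 the held-out ABA minus control difference ran down to -0.03 with a median of 4.09, and DFPM minus control spread from -2.32 to 3.94.

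A lower value with both compounds than with ABA was not limited to the 45 genes. Of all 132 named genes with ABA minus control of at least 3 and DFPM within 1 of control, 127 were lower with ABA+DFPM than with ABA, and the median difference was -1.20. None of the 132 was higher by 0.5 or more, 24 lay within 0.5 of ABA, 57 were lower by 0.5 to 1.5 and 51 by 1.5 or more, the 6 left-out genes included. The limits made those 51 lower, and the rest of the 127 are the 57 and 19 of the 24. Centring each array on its median moves the median ABA+DFPM minus ABA of all probe sets from -0.09 to 0.12. Then 125 of 142 named genes within the ABA and DFPM limits were lower, and their median was -1.06. ABA arrays enter both the choice and this difference. The 24 genes within 0.5 had a median ABA rise of 4.13 (3.13 to 6.39) and a median share left of 96.4%, against 4.66 (3.14 to 7.75) and 53.0% in the 45. Their median DFPM minus control was 0.43, against 0.00. Of the 24, 12 had a control mean under log2 4, against 36 of the 45.

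**Figure D4:**
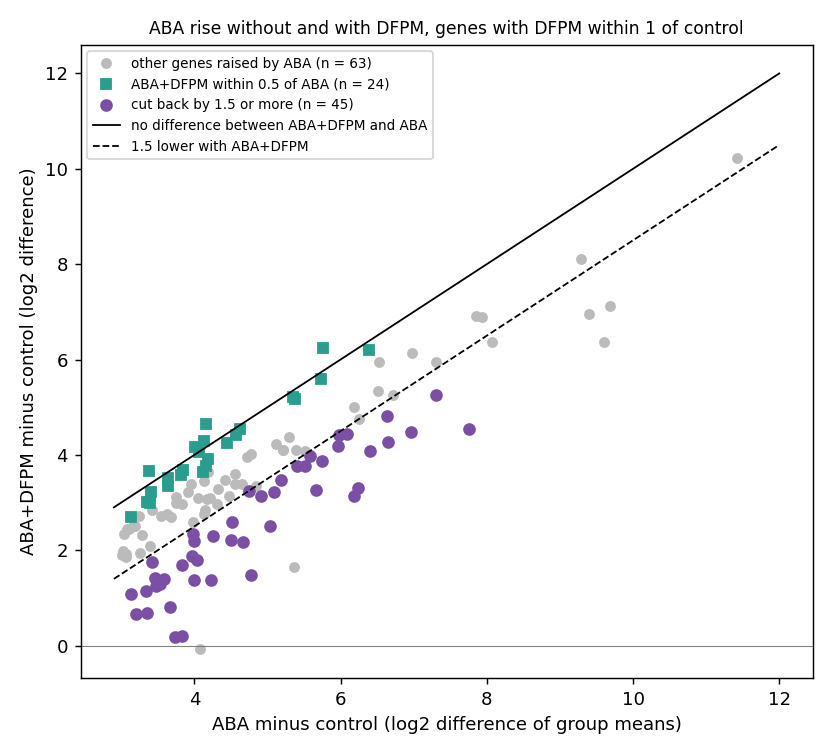
ABA+DFPM minus control (vertical axis) against ABA minus control (horizontal axis), both log2 differences of group means, for the 132 named genes raised by at least 3 with ABA and within 1 of control with DFPM. The 45 genes (purple) lie below the dashed line, 1.5 under equality, the 24 genes within 0.5 of ABA (green squares) lie along the solid line, and grey points are the others, among them the 6 left-out genes.

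Just inside the limit of -1.5 for ABA+DFPM minus ABA were CPUORF47 (-1.51), AT3G57010 (-1.55) and AT4G24130 (-1.61), and just outside it AT3G21670 (-1.49), AT3G50400 (-1.49) and PAP20 (-1.47). At the limit of 3 for ABA minus control, AT2G44260 (3.14), AT1G28650 (3.20) and AT2G14095 (3.34) were inside, and AT2G01580 (3.00 after rounding), AtLEA4-1 (2.95) and PDF2.1 (2.94) outside. For DFPM minus control the highest values inside were 0.82 in AT2G21820, 0.75 in AT4G12580 and 0.64 in AT5G13900, and those just outside were 1.33 in BGLU24 and 1.37 in AT4G18425. The lowest inside were -0.83 in AT2G44260, -0.82 in AT3G57010 and -0.80 in UGT85A5, and those just outside were -1.30 in AT5G23750, -1.73 in AT1G75900 and -1.89 in AT1G57590. When each of the 12 arrays was left out in turn, 25 of the 45 genes met the limits every time, and the least stable, AT3G57010, did so 7 times.

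For the ABA pathway around these genes, 3 lists were used. Of 20 well known ABA-inducible stress genes, 5 had a usable named probe set. All 5 rose with ABA in the limma test, where 14.6% of all probe sets did. In those other than COR15A the limma Benjamini-Hochberg adjusted p over all probe sets was 4.34e-08 to 6.23e-04. The list holds genes known to rise with ABA and was chosen with earlier results of these data known. Nothing is therefore read from this count. The 5 genes were COR15A and COR15B, which encode chloroplast proteins that protect membranes in the cold, COR47 and LTI30, which encode dehydrins, and LEA4-5, a late embryogenesis abundant protein gene. COR15A read 12.42 to 12.94 with ABA and 8.87 to 9.99 with both, a change of -3.24 ± 0.36. It meets the limits of the rule but was left out of the 45 by name, so no p-value is given for its changes. COR15B went from 8.91 to 9.62 with ABA to 6.73 to 8.26 with both (-1.68 ± 0.39, limma, adjusted p = 0.0212). LEA4-5 went from 10.97 to 12.01 to 9.92 to 10.75 (-1.18 ± 0.29, limma, adjusted p = 0.0266).

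The dehydrin genes gave other values: COR47 lay at 14.64 to 14.73 with ABA and 14.33 to 14.76 with both (-0.08 ± 0.24), and LTI30 at 14.47 to 15.01 and 14.16 to 14.84 (-0.24 ± 0.53), and neither passed (limma, adjusted p = 0.865 and 0.807). Their arrays overlapped between these groups, near the top of the array scale. So 3 of the 5 list genes fell, where 5.96% of all probe sets did, and the list's median was -1.18, against -0.09 over all probe sets. COR15A, 1 of the 3, meets the limit of the rule for this difference, and the list was chosen with earlier results of these data known. Nothing is therefore read from this count or median. Both COR15B and COR47 also fell with DFPM alone, with changes of -2.11 and -1.03 (limma, adjusted p = 0.00472 and 0.0123), a comparison in which 11.4% of all probe sets fell. The call of COR15B was lost without ABA replicate 2 or 3 (adjusted p = 0.0709 and 0.0674, with a range over all settings of 0.00714 to 0.0709). That of LEA4-5 was lost without ABA replicate 1 or 3 or ABA+DFPM replicate 2 and with arrays centred on the median (0.0973, 0.0831, 0.0844 and 0.0547, with a range of 0.00289 to 0.0973). None of the 28 receptor, phosphatase, kinase and transcription factor genes of ABA signalling and none of 12 genes of ABA synthesis and breakdown had a usable named probe set, so they are not analysed here.

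By locus, 12 of the 45 genes lie on chromosome 1, 7 on chromosome 2, 5 on chromosome 3, 12 on chromosome 4 and 9 on chromosome 5. Chromosome 4 held 26.7% of the 45 and 14.4% of all 7705 named genes kept, and chromosome 3 held 11.1% and 20%. No pair of the 45 lay within 20 protein-coding genes of each other in the RefSeq order of TAIR10.1. A directly adjacent gene with a usable named probe set existed for 25 of the 45, with 33 such neighbours in all. Of these 10 rose with ABA in the limma test, where 14.6% of all probe sets did. With ABA+DFPM against ABA 1 of the 33 fell, where 5.96% of all probe sets did. It was BGLU24, a beta-glucosidase gene beside AT5G28520. BGLU24 rose by 7.46 with ABA and changed by -2.07 with both, and it lay outside the rule because of its DFPM minus control of 1.33. The median of the 33 neighbours was 0.32 for ABA minus control and -0.08 for ABA+DFPM minus ABA.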

How the data were processed

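The authors' deposited log2 expression values per probe set were used as given. Per the submitters' processing notes, GCRMA and affy were the tools behind these values. Their versions and settings were not found in the labels. Values ran from 2.14 to 15.6 and array medians from 5.15 to 5.6. The table held 22810 probe sets, 64 of them controls, which were left out of tests. Probe sets reaching log2 4 in at least 3 of 12 arrays were kept, 14401 in all. Names came from the platform table and RefSeq (TAIR10.1, names and gene order only): 13513 probe sets named 1 gene (13436 matched RefSeq), 503 several and 8730 none, and of those kept 7705, 310 and 6386. All 45 probe sets are of the plain _at type, with 1 probe set per gene.

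Groups were compared with limma 3.58.1 (R 4.3.3) by lmFit and eBayes on all 12 arrays without a covariate, two-sided, with Benjamini-Hochberg adjustment over all kept probe sets at 0.05, and standard errors come from that fit. The replicate numbers paired arrays only in the values given by number and in the replicate block, while the main fit left this pairing out. They were used so because deviations from group means correlated in each of 18 same-number pairs (r from 0.426 to 0.802). The labels do not define the numbers. Alternatives were the replicate block, other filters and scalings, array weights, an intensity trend, a floor, group medians, single numbers and leaving out each array. The code of the fit and of the rule was run on simulated data with independent noise. These data lacked the differences between replicate numbers seen here, so the runs check the code only. All 45 genes are named, with values of every array for the 8 with the deepest drop, the 4 with the largest ABA rise, the 3 with the smallest and the 3 with the largest share left, and the 4 with a symbol. The members and lists were chosen with earlier results of these data known. Promoter motifs were planned, but no sequence table was used here. Tables and plots were made in Python 3.11.15.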

Additional observations from a re-analysis of the deposited data

How the results depend on the processing

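The number of genes meeting the limits stayed between 31 (values floored at log2 4) and 52 (numbers 2 and 3 only) under the filters, scalings, group medians and single numbers tried, and between 38 and 61 when each array was left out; 28 of the 45 remained with the floor and 30 with number 3 only. The median ABA+DFPM minus ABA of the 45 was -1.98 with arrays centred on the median, -2.08 with quantile normalization and -1.91 with the floor, and -2.36 to -2.07 with 1 array left out. The median share of the rise left was 40.9% with the floor and 52.0% to 57.3% with 1 array left out. None of the 45 single-gene differences changed sign in 990 recomputed values. These reuse the arrays that chose the genes at -1.5 or lower, so a change of sign was unlikely and nothing is read from this. Probe sets called numbered 4165 for ABA against control, 3463 for DFPM against control and 1814 for ABA+DFPM against ABA. With the replicate block they numbered 6982, 6821 and 4486, and with array weights 9020, 7969 and 5959. With 1 array left out they ran from 2402 to 4669, 1981 to 4032 and 904 to 2280, and for ABA+DFPM against control (6833) from 5335 to 7167. Leaving out 1 array moved a count by over 1.5 times for control replicate 2 (2746 for ABA against control, 1981 for DFPM against control), ABA replicate 1 (2402, and 945 for ABA+DFPM against ABA) and ABA replicate 2 (2676 and 904). The cause was not tested. With arrays centred on the median, 66.0%, 71.5% and 61.0% of calls for DFPM against control, ABA+DFPM against ABA and ABA+DFPM against control were higher, against 52.8%, 52.7% and 46.4%. The block moved no call of the 5 ABA-inducible list genes. LTI30 was not called for DFPM against control in the main fit (0.74, limma, adjusted p = 0.335). It was called higher with array weights (1.14, limma, adjusted p = 0.00115) and without control replicate 3 (1.45, limma, adjusted p = 0.016). Values near log2 3 are limited by signal over background.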

Other observations

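Beyond the 45 named genes, 36 kept probe sets that name no gene or several met the same 3 limits. Their ABA minus control ran from 3.04 to 10.28 (median 4.83) and their ABA+DFPM minus ABA from -4.55 to -1.52 (median -2.15), beside medians of 4.66 and -2.19 in the 45. The share of the ABA rise left ran from 0.1% to 82.0% with a median of 53.7%, and in 5 of the 36 ABA+DFPM stood within 1 of control. In 30 of the 36 all ABA+DFPM arrays lay below all ABA arrays (18.8% of all kept probe sets). The limits fixed these differences, so nothing is read from the count or from the likeness of the medians. Their genes are not analysed here.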
